A study of Rattus norvegicus with 16 samples.

Results

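Rats fed a high fat diet and injected with 5-AzaD were compared with rats on chow, by RNA sequencing of the frontal cortex. The HF_5AzaD group (4 libraries, numbered 3, 5, 6 and 7) ate the high fat diet for 7 weeks and was injected into the abdomen for 10 days with 5-AzaD (5-aza-2′-deoxycytidine) dissolved in PBS, a salt buffer. The chow group (4 libraries, numbered 1 to 4) ate chow for the same 7 weeks and, as far as the labels say, was not injected. All animals were male Sprague-Dawley rats aged 11 weeks at the start. The groups therefore differ by diet, injection and drug at once, and these cannot be told apart within the comparison. Values are also given for 2 further groups of 4 libraries: HF_PBS ate the high fat diet and was injected with PBS alone for 10 days, and HF ate the high fat diet only. The comparison uses 8 of the 16 libraries of the series. It covers every locus with a mean of at least 1 FPKM (fragments counted at the locus, scaled to transcript length and library size) over the 16 libraries and an estimate marked as sound in all of them, 14824 of 28168 loci. Of these, 11033 carry a gene symbol and 3791 do not. Nothing in the labels says that each library is a separate animal, so p-values measure the spread between these libraries, which may be partly technical.

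DNA methyltransferases add methyl groups to cytosine, mostly where it is followed by guanine (a CG site). 5-AzaD is a cytosine analogue that dividing cells build into new DNA, where it traps these enzymes, so methylation is lost as cells divide. Cells activate it with deoxycytidine kinase and destroy it with cytidine deaminase. Most cortical neurons no longer divide, while glia, vessel cells and precursors still can. In frontal cortex, methylation of CG sites and the proteins that read it are known for their part in neuronal gene expression. Only RNA was analysed here, not methylation.

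The libraries were checked before the genes. Relative depth was read from the most common ratio between chow 2, the deepest library, and each other library over loci of very low FPKM. It was 34.6% to 44.4% of that of chow 2 in HF_5AzaD and 38.7% to 100% in chow. The absolute depth is unknown. HF_5AzaD was the more variable group. Over the loci tested, Pearson correlations of log2 values ran from 0.925 to 0.957 within HF_5AzaD and from 0.965 to 0.984 within chow, and the median SD of a locus on the log2 scale was 0.237 in HF_5AzaD and 0.129 in chow. The markers of cortex were present. Slc17a7, the vesicular glutamate transporter of cortical excitatory neurons, had 598, 499, 466 and 460.02 FPKM in HF_5AzaD libraries 3, 5, 6 and 7, against 604, 647, 615 and 719 FPKM in chow libraries 1 to 4. Neurod6 and Tbr1, transcription factors of cortical neurons, were lowest in HF_5AzaD libraries 5 and 7. Neurod6 stood at 45.3, 10.9, 28.5 and 7.08 FPKM in HF_5AzaD and 29.2, 30.5, 27.1 and 34.7 FPKM in chow. Tbr1 stood at 41.1, 14.3, 40.2 and 23.9 FPKM in HF_5AzaD and 46.2, 48.2, 51.1 and 49.8 FPKM in chow. The hypothalamic peptide gene Oxt, at 0, 8.83, 0.935 and 10.9 FPKM in HF_5AzaD and 0.286, 0.179, 0.232 and 0.0819 FPKM in chow, was highest in the same pair of libraries. These genes were singled out after their values were seen. The total count and several lists below are therefore also given without HF_5AzaD 5 and 7. In that fit 1 of the 59 gene lists held a call, glycolysis with Gapdh. It leaves 2 libraries in HF_5AzaD, and the part of the smaller group in the loss of calls was not tested. In these bulk samples, fewer cells of a type and less RNA per cell cannot be told apart.

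The comparison held 2414 called loci, 16.3% of those tested, at an adjusted p under 0.05 (limma, with Benjamini-Hochberg adjustment over all 14824 loci). Of these, 1064 (7.18%) were higher in HF_5AzaD and 1350 (9.11%) were lower. At an unadjusted p under 0.05 there were 5277 loci. Most calls were small. The median log2 difference was 0.59 among the higher and -0.68 among the lower calls, and 137 higher and 342 lower calls changed at least 2-fold. The median over all loci tested was 0.0043. HF_5AzaD and chow libraries did not overlap at 4025 loci, 27.2% of those tested, and at 2182 of the 2414 called loci. Lower calls were the more frequent at middle levels: from 5 to 20 FPKM, 6.99% of 5404 loci were higher and 11.1% lower. Above a mean of 100 FPKM the order was the other way, with 9.96% of 843 loci higher and 4.98% lower. Calls without a gene symbol numbered 291 higher and 471 lower.

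**Figure D1:**
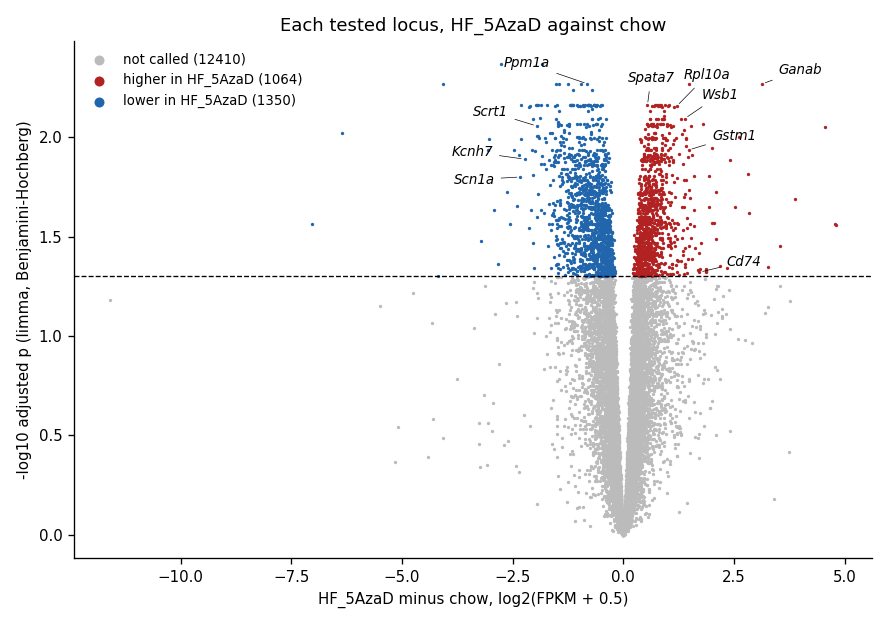
Each point is 1 tested locus, with the HF_5AzaD minus chow difference in log2(FPKM + 0.5) on the x axis and -log10 of limma's adjusted p on the y axis. The dashed line marks an adjusted p of 0.05, above which 1064 loci were higher (red) and 1350 lower (blue) in HF_5AzaD.

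The number of calls rested strongly on single libraries. Without HF_5AzaD 7 it was 399 (179 higher, 220 lower). Leaving out a chow library gave 1291 calls without chow 1, 863 without chow 2, 697 without chow 3 and 705 without chow 4. Leaving out HF_5AzaD 3, 5 or 6 gave 2168, 1926 and 2906 calls. Exactly 379 calls, 15.7% of the 2414 (168 higher, 211 lower), held in all 8 of these fits. Without both HF_5AzaD 5 and 7, which leaves 2 libraries in that group, 73 loci were called, 16 higher and 57 lower. The median difference of the 2414 loci in that fit was 0.48 for the higher and -0.54 for the lower calls. All of them kept their sign there, which the choice of loci fixes for the 2182 whose groups did not overlap. Of the 178 named genes that were called, 39 held in all 8 fits and 8 held without libraries 5 and 7. Most losses came without HF_5AzaD 7 (138 genes), chow 3 (119), chow 4 (116) and chow 2 (108), and fewer without chow 1 (81), HF_5AzaD 5 (56), HF_5AzaD 3 (48) and HF_5AzaD 6 (13). Below, the "left-out range" after an adjusted p gives the lowest and highest adjusted p over the 8 fits. A gene whose range passes 0.05 lost its call in at least 1 of them.

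**Figure D2:**
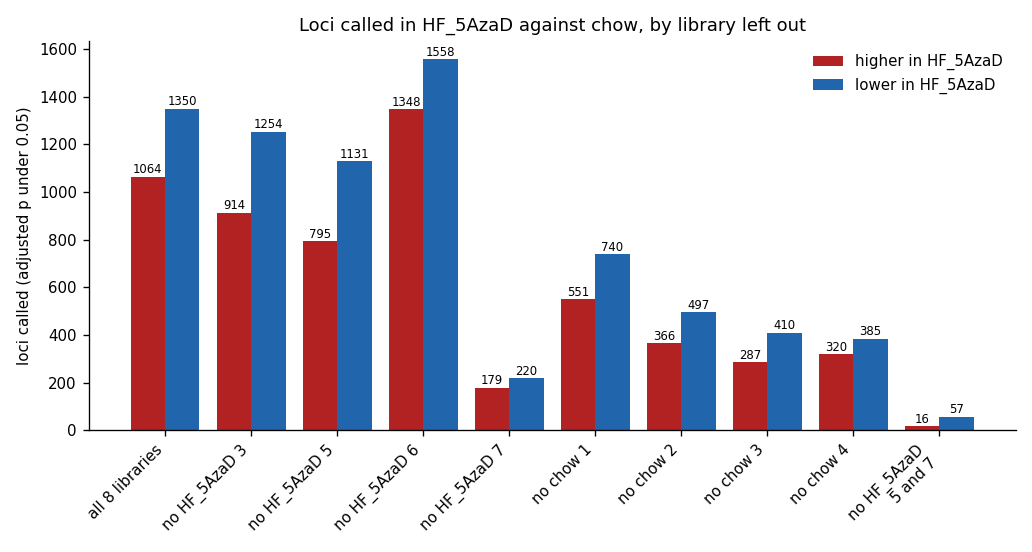
Bars give the number of loci called higher (red) and lower (blue) in HF_5AzaD against chow with all 8 libraries and with each library, or HF_5AzaD 5 and 7 together, left out. The count fell most without HF_5AzaD 7 (179 higher, 220 lower) among single libraries, and to 16 higher and 57 lower without both 5 and 7.

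The genes with the largest higher calls (mean of at least 5 FPKM, libraries of both groups apart) were an immune chaperone, ribosomal proteins, a detoxifying enzyme and several small cytoplasmic or secreted proteins. Cd74, the invariant chain that escorts MHC class II molecules, had 8.96, 22.9, 16.9 and 39.5 FPKM in HF_5AzaD, against 8.85, 7.51, 5.21 and 2.56 FPKM in chow. The groups were barely apart, with HF_5AzaD 3 just above chow 1 and HF_5AzaD 7 highest. The difference was 1.72 (SE 0.55, adjusted p = 0.0477, left-out range 0.0339 to 0.159). Gstm1, a glutathione S-transferase that conjugates reactive compounds, had 81.5, 142, 105 and 223 FPKM in HF_5AzaD and 57.5, 36.5, 43.4 and 48.3 FPKM in chow. All HF_5AzaD libraries stood above all chow libraries, with library 7 highest again. Its difference of 1.48 (SE 0.30, adjusted p = 0.0116, left-out range 0.0102 to 0.0424) held in all 8 fits. A second locus of Gstm1, counted apart, also stood higher, at 74.1, 106.7, 89.95 and 132.9 FPKM in HF_5AzaD and 64.0, 71.7, 64.9 and 63.9 FPKM in chow. Glutathione transferases form a family of similar genes, so reads may be split between its members.

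Wsb1, which carries substrates to a ubiquitin ligase, was among the most even of these genes. It had 40.3, 47.2, 42.8 and 59.4 FPKM in HF_5AzaD and 18.9, 15.8, 17.1 and 18.8 FPKM in chow, groups far apart, and differed by 1.39 (SE 0.25, adjusted p = 0.00803, left-out range 0.00816 to 0.0334). Tmsb10, a thymosin that binds actin monomers, had 175, 187, 143 and 336 FPKM in HF_5AzaD and 56.9, 82.9, 63.4 and 119.7 FPKM in chow, and differed by 1.36 (SE 0.30, adjusted p = 0.0137, left-out range 0.00984 to 0.0502). Library 7 was the highest of HF_5AzaD here too. Rbp4, the carrier of retinol, had 28.7, 49.3, 22.9 and 68 FPKM in HF_5AzaD and 22.7, 22.4, 10.8 and 14.1 FPKM in chow, and the groups were apart by less than 1 FPKM. Its difference was 1.18 (SE 0.37, adjusted p = 0.0437, left-out range 0.0217 to 0.15). Zfp423, a zinc finger transcription factor, and Cst6, an inhibitor of cysteine proteases, were highest in HF_5AzaD 5. Zfp423 had 13.7, 48.8, 8.68 and 27.7 FPKM in HF_5AzaD and 8.05, 7.29, 6.75 and 6.62 FPKM in chow (log2 difference 1.43, adjusted p = 0.0254, left-out range 0.00635 to 0.0899), and Cst6 had 19.8, 65.8, 18.1 and 43.5 FPKM in HF_5AzaD and 11.2, 13.4, 11.8 and 11.2 FPKM in chow (log2 difference 1.39, adjusted p = 0.0192, left-out range 0.00885 to 0.0718). Where brackets hold an adjusted p followed by a pair of values, the pair is the left-out range. Emp3, an epithelial membrane protein, differed by 1.24 (adjusted p = 0.0272, 0.0278 to 0.0981) and Crip1, a small LIM domain protein, by 1.21 (adjusted p = 0.0475, 0.0321 to 0.152). Of the 12 genes in this set, which also holds Rps29, Rps24 and Rpl10a, 4 held their call in all 8 fits and 7 lost it without HF_5AzaD 7. None of the 12 was called without HF_5AzaD 5 and 7.

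Markers of other cells moved in the same libraries. The microglial score (each marker's log2 level centred on its average in the 16 libraries, then averaged over markers) was -0.26, 0.42, 0.12 and 0.50 in HF_5AzaD 3, 5, 6 and 7, against -0.48 to -0.27 in chow. The leptomeningeal score, for cells of the brain's covering membranes, was 0.02, 0.56, 0.61 and 1.62 in HF_5AzaD and -1.09 to 0.55 in chow. The part of these cells in the values of Cd74, Emp3, Crip1 and Rbp4 was not tested.

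The 12 genes with the largest lower calls included a sodium and a potassium channel. Scn1a, the sodium channel Nav1.1, had 4.2, 1.62, 7.35 and 0.996 FPKM in HF_5AzaD, against 18.2, 14.5, 18.6 and 13.6 FPKM in chow. The groups were far apart, and libraries 5 and 7 were the lowest. Its difference was -2.33 (SE 0.53, adjusted p = 0.0158, left-out range 0.00775 to 0.0606), and -1.45 without libraries 5 and 7. Kcnh7, a potassium channel of the ether-a-go-go related family, had 2.63, 1.12, 3.54 and 0.822 FPKM in HF_5AzaD and 8.96, 9.23, 10.7 and 12.3 FPKM in chow. The same pair of libraries was lowest, and the difference was -2.23 (SE 0.47, adjusted p = 0.0129, left-out range 0.00885 to 0.0504). Gfod1 had 7.4, 11.6, 9.96 and 4.42 FPKM in HF_5AzaD and 27.1, 30.03, 26.8 and 40.9 FPKM in chow. Here HF_5AzaD 5 was not low but the highest of its group, and the difference of -1.90 (SE 0.37, adjusted p = 0.0101, left-out range 0.00935 to 0.0407) held in all 8 fits.

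Scrt1, a repressor made in neurons, had 18.6, 9.39, 27 and 7.56 FPKM in HF_5AzaD and 56.2, 55.4, 61.3 and 48.2 FPKM in chow, and its difference of -1.96 (SE 0.36, adjusted p = 0.00876, left-out range 0.00469 to 0.0352) held likewise. Sema7a, a membrane-anchored semaphorin of axon growth, split the HF_5AzaD group, at 86, 14.6, 130.00 and 17.7 FPKM in HF_5AzaD and 199, 173, 189 and 133 FPKM in chow. Its difference was -2.04 (SE 0.59, adjusted p = 0.034, left-out range 0.00984 to 0.121), and -0.70 (adjusted p = 0.372) without libraries 5 and 7. Rims3, a protein of the presynaptic release site, was split the same way, at 28.4, 8.77, 43.9 and 11 FPKM in HF_5AzaD and 70.4, 66.4, 70.02 and 58.1 FPKM in chow, with a difference of -1.79 (SE 0.46, adjusted p = 0.0241, left-out range 0.00888 to 0.089). Both genes were thus closest to chow in HF_5AzaD 6 and far below it in libraries 5 and 7.

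Caln1, a calcium-binding protein of neurons, showed the other pattern. It had 5.77, 18.9, 5.93 and 4.81 FPKM in HF_5AzaD and 23.4, 26.2, 24.7 and 31.6 FPKM in chow, with library 5 alone near chow. The difference was -1.74 (SE 0.38, adjusted p = 0.0144, left-out range 0.00728 to 0.0574), and -2.08 (adjusted p = 0.0392) without libraries 5 and 7, so that its call held there. Nr2c2, an orphan nuclear receptor, had 3.11, 7.98, 4.3 and 3.12 FPKM in HF_5AzaD and 12.1, 14.9, 14.6 and 17.8 FPKM in chow, and differed by -1.66 (SE 0.31, adjusted p = 0.00954, left-out range 0.00728 to 0.0398). It too was called without libraries 5 and 7 (adjusted p = 0.0392). Adcy1, the calcium-stimulated adenylyl cyclase of cortical neurons, had 65.6, 70.8, 96.8 and 28.3 FPKM in HF_5AzaD and 147, 190.1, 189 and 207 FPKM in chow, and its log2 difference was -1.60 (adjusted p = 0.0215, 0.0133 to 0.0735). Dbf4, which activates the Cdc7 kinase at replication origins, differed by -1.74 (adjusted p = 0.0105, 0.00748 to 0.0438), and Rnf148, a RING finger protein, by -1.60 (adjusted p = 0.0246, 0.015 to 0.0665). Ttc39a, a tetratricopeptide repeat protein, was listed at 0, 0, 0.849 and 0 FPKM in HF_5AzaD and had 111, 60.2, 118 and 61.9 FPKM in chow. It was also listed at 0 in 3 of the 4 HF_PBS and 2 of the 4 HF libraries, and a 0 in such a table can be a failed estimate, so no fold is given. Of the 12 genes, 4 held in all 8 fits and 8 lost the call without HF_5AzaD 7.

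**Figure D3:**
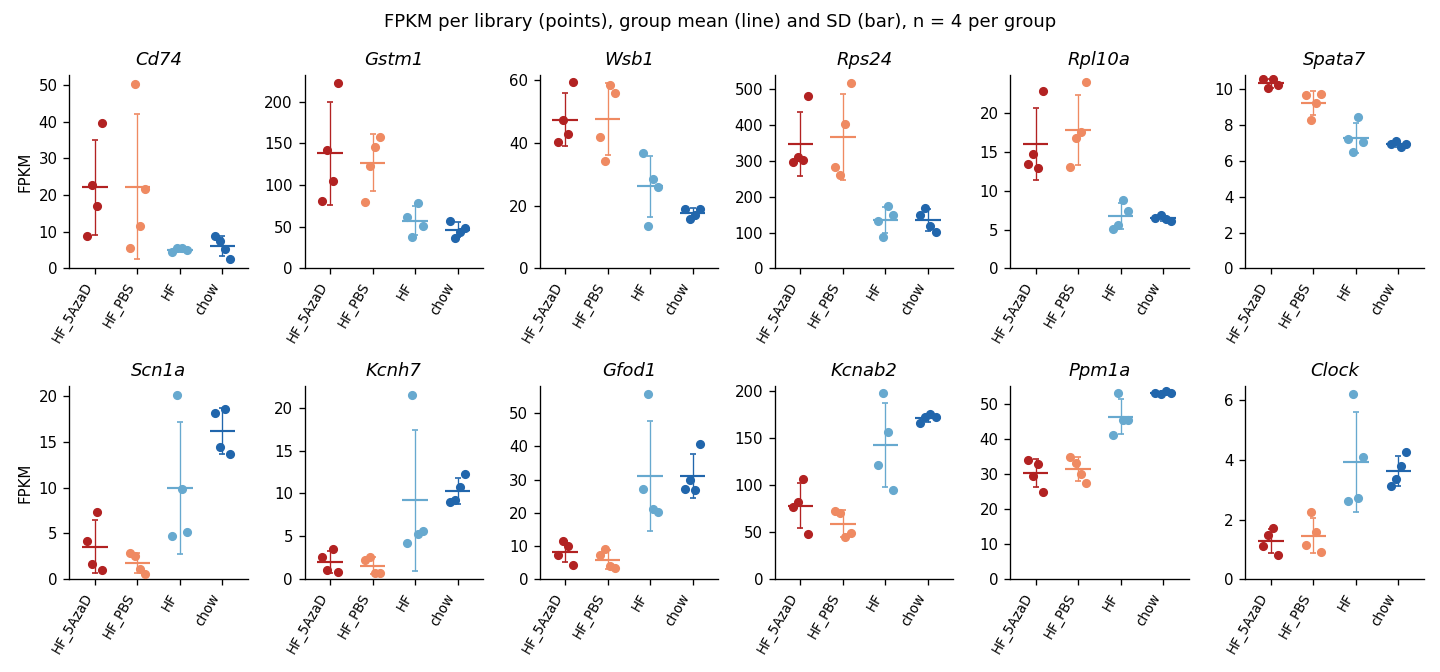
FPKM of 12 genes in each library (points), with the group mean (line) and SD (bar), for HF_5AzaD, HF_PBS, HF and chow from left to right. For the genes in the upper row the HF_5AzaD libraries lie above chow, and for those in the lower row below it, while the HF_PBS mean lies nearer to HF_5AzaD than to chow.

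The 8 genes chosen for the lowest p-values all held in all 8 fits. Apart from Ganab, their differences lay between -0.86 and 0.79. Ppm1a, a serine/threonine phosphatase, had 34, 29.6, 32.8 and 25 FPKM in HF_5AzaD and 53.1, 53, 53.9 and 53.2 FPKM in chow. The chow libraries lay within 1 FPKM of each other, far above HF_5AzaD, and the difference was -0.81 (SE 0.11, adjusted p = 0.00538, left-out range 0.00401 to 0.0216). Spata7, a protein of cilia, had 10.6, 10.04, 10.5 and 10.2 FPKM in HF_5AzaD and 6.91, 7.1, 6.76 and 6.91 FPKM in chow, a difference of 0.55 (SE 0.082, adjusted p = 0.00689, left-out range 0.00585 to 0.0271). The 4 HF_5AzaD libraries of Spata7 lay within 1 FPKM of each other. Rbm25, a splicing regulator, differed by 0.75 (adjusted p = 0.00689, 0.00575 to 0.0271) and Zfp386, a zinc finger protein, by 0.79 (adjusted p = 0.00689, 0.00773 to 0.0271). On the lower side were Icmt, which methylates prenylated proteins, at -0.71 (adjusted p = 0.0058, 0.00474 to 0.0271), Rmdn3, a tether between mitochondria and the endoplasmic reticulum, at -0.61 (adjusted p = 0.00689, 0.00575 to 0.0271), and Polg, the mitochondrial DNA polymerase, at -0.86 (adjusted p = 0.00689, 0.00461 to 0.0271). Ganab, Spata7, Ppm1a, Icmt and Rmdn3 were also called without HF_5AzaD 5 and 7. Ganab, for glucosidase II, had 4.57, 2.29, 3.2 and 9.97 FPKM in HF_5AzaD and 0.0889, 0, 0 and 0.123 FPKM in chow at this locus. A second locus shared between Ganab and Ints5 stood at 35.9 to 42.5 FPKM in HF_5AzaD and 37.1 to 40.2 FPKM in chow. The call of Ganab is therefore uncertain as a change of that gene's RNA.

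The promoters of 4 of these genes are shown because CG sites are where the inhibited enzymes work. They are RefSeq sequences on build GRCr8, not the build of the expression table. Each runs from 250 bases before to 50 bases after the annotated start, with CG sites in capitals. Cd74 (chr18:56526956-56527255, plus strand) and Gstm1 (chr2:198343334-198343633, minus strand) were higher in HF_5AzaD and hold 4 and 8 CG sites. Gfod1 (chr17:21605840-21606139, plus strand) and Kcnh7 (chr3:68230622-68230921, minus strand) were lower and hold 35 and 25.
Cd74: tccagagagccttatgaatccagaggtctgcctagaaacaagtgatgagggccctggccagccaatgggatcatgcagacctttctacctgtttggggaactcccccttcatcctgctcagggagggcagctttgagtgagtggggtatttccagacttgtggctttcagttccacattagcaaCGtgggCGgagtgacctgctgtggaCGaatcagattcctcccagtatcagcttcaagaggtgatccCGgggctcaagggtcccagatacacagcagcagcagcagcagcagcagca
Gstm1: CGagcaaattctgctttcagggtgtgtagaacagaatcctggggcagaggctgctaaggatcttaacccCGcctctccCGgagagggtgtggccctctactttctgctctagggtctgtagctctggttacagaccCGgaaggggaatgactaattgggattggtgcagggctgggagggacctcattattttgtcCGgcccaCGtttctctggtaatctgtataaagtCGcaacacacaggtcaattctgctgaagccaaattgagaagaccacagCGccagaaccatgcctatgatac
Gfod1: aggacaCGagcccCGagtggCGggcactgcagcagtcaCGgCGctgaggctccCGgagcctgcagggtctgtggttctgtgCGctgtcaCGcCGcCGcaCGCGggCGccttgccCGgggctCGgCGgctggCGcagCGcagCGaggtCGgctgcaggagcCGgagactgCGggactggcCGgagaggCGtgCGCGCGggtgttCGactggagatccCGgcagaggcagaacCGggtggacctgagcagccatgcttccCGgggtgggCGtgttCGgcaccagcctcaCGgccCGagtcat
Kcnh7: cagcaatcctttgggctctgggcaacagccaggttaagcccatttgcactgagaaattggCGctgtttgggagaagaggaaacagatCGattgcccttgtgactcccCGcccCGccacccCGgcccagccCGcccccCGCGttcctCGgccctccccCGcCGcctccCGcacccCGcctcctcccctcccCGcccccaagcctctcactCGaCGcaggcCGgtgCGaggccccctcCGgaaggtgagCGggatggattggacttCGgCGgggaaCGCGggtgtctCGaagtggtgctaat
These 4 do not stand for the rest. RefSeq gave a promoter for 8034 of the 9865 named symbols (81.4%). The median number of CG sites was 21 (quartiles 15 and 28, 551 genes) in genes called higher, 24 (16 and 33, 665 genes) in genes called lower, 21 (13 and 29, 6818 genes) in genes not called and 21 over all. The motif is CG, which reads the same on both strands. The spread within each set was far wider than the distance between the medians.

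Genes of DNA methylation itself were counted next, per named symbol. Of the 9865 named symbols, 6.77% were called higher and 8.29% lower, and list counts below are read against these shares. Counts of list members lying above (higher) or under (lower) chow go by the sign of the log2 difference, and libraries may overlap. In HF_5AzaD, 1 of 12 tested genes of the writers, erasers and readers of methylation was called higher and 4 were called lower (33.3%, median log2 difference -0.18, against 0.013 over all named symbols). Dnmt3a, the methyltransferase that sets new marks in neurons, had 5.59, 5.31, 6.65 and 5.74 FPKM in HF_5AzaD and 6.49, 6.71, 7.39 and 7.79 FPKM in chow. These groups overlapped, and the call was at the threshold: -0.27 (SE 0.087, adjusted p = 0.0497, left-out range 0.0226 to 0.136). Dnmt1, which copies methylation at replication, had 6.11, 6.22, 6.33 and 5.97 FPKM in HF_5AzaD and 6.94, 7.09, 7.23 and 7.71 FPKM in chow. Its groups did not overlap, yet its difference of -0.22 (SE 0.077, adjusted p = 0.0641, left-out range 0.0703 to 0.167) was not called. Hells, a chromatin remodeller needed for methylation, differed by -0.74 (adjusted p = 0.0351, 0.0218 to 0.121), Mbd1, a binder of methylated DNA, by -0.34 (adjusted p = 0.0489, 0.0424 to 0.161), and Uhrf2, a relative of the Dnmt1 partner Uhrf1, by 0.38 (adjusted p = 0.0365, 0.0151 to 0.106). None of the 5 calls held in all 8 fits. The 4 lower calls fell to 0 without HF_5AzaD 3 or 7 or chow 2, 3 or 4, to 1 without chow 1 and to 3 without HF_5AzaD 5. Tet1, Tet2 and Tet3, the enzymes that oxidise the methyl group, did not enter the test.

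Genes that take up, activate or destroy 5-AzaD gave 0 calls of 16 (median 0.10). Germline genes, which methylation keeps silent in other tissues, were at or near 0. Of 15 in the table, 1 passed the level filter, and the highest value of any was 1.76 FPKM in HF_5AzaD and 1.78 FPKM in chow, both for Piwil2. Among imprinted genes, which in some tissues or transcripts are read from a single parental copy, 2 of 16 were called higher and 1 lower. The median was 0.42, and 0.15 without HF_5AzaD 5 and 7. The list score was -0.16, 0.67, -0.28 and 0.69 in HF_5AzaD 3, 5, 6 and 7, against -0.52 to -0.30 in chow, and was highest in the libraries where the score of hypothalamic markers was highest, at -1.08, 1.07, -0.44 and 1.07 in HF_5AzaD and -1.24 to -0.75 in chow. The part of hypothalamic cells in the list's values was not tested. Gnas, for the stimulatory G protein subunit, had 1685, 1686, 1196 and 2010.1 FPKM in HF_5AzaD and 1027, 1047, 1024 and 959.7 FPKM in chow, all HF_5AzaD libraries being above chow, and differed by 0.67 (SE 0.17, adjusted p = 0.0215, left-out range 0.00825 to 0.0793). Mest had 14.6, 13, 13.3 and 13 FPKM in HF_5AzaD and 22.5, 19.4, 23.2 and 20.9 FPKM in chow, the groups again apart, and differed by -0.65 (SE 0.16, adjusted p = 0.0186, left-out range 0.0238 to 0.0631). Sgce, a sarcoglycan, differed by 0.31 (adjusted p = 0.033, 0.0448 to 0.0909). Polycomb and other histone methylation enzymes gave 1 higher and 2 lower calls of 18 (median 0.10). The histone demethylase Kdm3a, at 15, 13.2, 13.7 and 15.2 FPKM in HF_5AzaD and 9.63, 9.75, 10.6 and 10.01 FPKM in chow, held in all 8 fits (log2 difference 0.49, adjusted p = 0.00998, left-out range 0.00984 to 0.041). The methyltransferases Nsd1 and Ehmt1 differed by -0.64 (adjusted p = 0.0321, 0.0295 to 0.11) and -0.45 (adjusted p = 0.0404, 0.0184 to 0.134).

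Ribosomal protein genes were the list with the highest share of calls. These proteins build the cytoplasmic ribosome and are made in step with each other. Of 62 tested, 28 were called higher (45.2%, against 6.77% over named symbols) and 0 lower, and 59 lay above chow, with a median difference of 0.52. The list score was 0.13, 0.20, 0.05 and 0.65 in HF_5AzaD 3, 5, 6 and 7, against -0.40 to -0.18 in chow, so all 4 HF_5AzaD libraries stood above all chow libraries. Rps24 had 297, 310.3, 301 and 479.7 FPKM in HF_5AzaD and 149.97, 168, 119 and 101 FPKM in chow, and differed by 1.36 (SE 0.26, adjusted p = 0.00918, left-out range 0.00899 to 0.0372). Rpl10a had 13.5, 14.8, 12.9 and 22.9 FPKM in HF_5AzaD and 6.46, 6.9, 6.34 and 6.14 FPKM in chow, and differed by 1.21 (SE 0.20, adjusted p = 0.00695, left-out range 0.00575 to 0.0271). In both genes libraries 3, 5 and 6 lay close together and library 7 lay above them. Rpl6 (log2 difference 0.94, adjusted p = 0.00689, left-out range 0.00469 to 0.0271), Rps15a (log2 difference 1.02, adjusted p = 0.00954, left-out range 0.00575 to 0.0307) and Rpl29 (log2 difference 0.73, adjusted p = 0.0113, left-out range 0.0104 to 0.0451) held in all 8 fits too. Rps29 had 41.4, 42.7, 28.8 and 190.5 FPKM in HF_5AzaD and 21.4, 18.3, 19.9 and 14.1 FPKM in chow, and its difference of 1.59 (adjusted p = 0.0279, 0.0131 to 0.0758) leaned on library 7. Over the list, higher calls numbered 10 without HF_5AzaD 7 and 9 to 19 without a chow library (9 without chow 4, 12 without chow 3, 14 without chow 2), and 0 without HF_5AzaD 5 and 7, where the median was still 0.38 and 54 of 62 lay above chow. Ribosomal proteins have many processed pseudogenes, between which reads can be split, so single members are less sure than the list.

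In many vertebrate ribosomal protein genes the transcript starts with a C followed by a run of C and T, through which translation is controlled. The start is therefore shown for Rpl10a and Rps24, from 50 bases before to 50 bases after the annotated start (RefSeq, GRCr8; Rpl10a chr20:6390483-6390582, plus strand, Rps24 chr16:96467-96566, plus strand), with the run at the start in capitals.
Rpl10a: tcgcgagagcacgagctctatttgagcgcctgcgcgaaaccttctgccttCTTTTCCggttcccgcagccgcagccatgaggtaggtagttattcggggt
Rps24: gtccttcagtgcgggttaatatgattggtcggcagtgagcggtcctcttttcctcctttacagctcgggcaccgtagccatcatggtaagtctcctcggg
Rpl10a has a run of 7 at its start, read on the gene's strand. Rps24 has no run that begins with C at its annotated first base. That base is a T, within a stretch of C and T that spans the start. Over the named symbols with a promoter, 238 of 8034 (2.96%) begin with such a run of at least 5. No share is given for the list, since only 48 of its 62 genes (77.4%) matched a sequence, which leaves that check void.

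Other lists of protein production, and the proteasome list, gave mostly higher calls too, but fewer of them. Translation initiation and elongation factors gave 5 higher and 0 lower calls of 31 (median 0.14): Eif3k, Eef1d, Eef1g, Eif3m and Eif5a, by 0.32 to 0.43. They fell to 0 without HF_5AzaD 7, chow 3 or chow 4, to 1 without HF_5AzaD 5, chow 1 or chow 2 and to 2 without HF_5AzaD 3. Mitochondrial ribosomal proteins gave 9 higher and 0 lower of 59 (15.3%, median 0.20), with 53 above chow. Mrpl41 had 48.3, 48.4, 43.2 and 54.1 FPKM in HF_5AzaD and 33.3, 38.8, 35.2 and 33.1 FPKM in chow, groups apart, and held in all 8 fits (log2 difference 0.46, adjusted p = 0.0111, left-out range 0.00773 to 0.0445), as did Mrpl23 (log2 difference 0.61, adjusted p = 0.0123, left-out range 0.00591 to 0.0458) and Mrpl32 (log2 difference 0.48, adjusted p = 0.0124, left-out range 0.0131 to 0.0488). The count was 3 without HF_5AzaD 7, chow 2, chow 3 or chow 4, 4 without HF_5AzaD 3, 5 without chow 1 and 15 without HF_5AzaD 6. Proteasome subunits, which form the main protease of the cell, gave 5 higher and 1 lower of 36 (median 0.14). Psmb6, of the catalytic core, had 9.54, 7.84, 6.3 and 12.5 FPKM in HF_5AzaD and 4.59, 4.79, 4.47 and 4.17 FPKM in chow (log2 difference 0.89, adjusted p = 0.0101, left-out range 0.00516 to 0.0352), and Psmd1 of the cap differed by 0.48 (adjusted p = 0.0129, 0.0109 to 0.0488). Psmd2, also of the cap, was lower, at -0.34 (adjusted p = 0.0289, 0.0293 to 0.099). The 5 higher calls became 2 without HF_5AzaD 7, chow 3 or chow 4 and 3 without chow 2, and 8 without HF_5AzaD 6.

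In the respiratory chain most calls were higher, while a core subunit of complex I and a subunit of complex II were lower. Complex I gave 5 higher and 1 lower calls of 33 (median 0.24, 28 above chow). The accessory subunit Ndufa11 had 168, 143, 130.4 and 182 FPKM in HF_5AzaD and 104, 104, 105 and 92.2 FPKM in chow (log2 difference 0.61, adjusted p = 0.0131, left-out range 0.0086 to 0.0516), and the accessory subunits Ndufa6, Ndufa12 and Ndufb10 and the core subunit Ndufv2 differed by 0.35 to 0.52. Ndufs1, the largest core subunit, was lower, at 63.8, 51.2, 56.6 and 43.4 FPKM in HF_5AzaD and 78.9, 73, 68.5 and 67.5 FPKM in chow (log2 difference -0.43, adjusted p = 0.0413, left-out range 0.0311 to 0.145). The complex I calls were 0 without HF_5AzaD 7, 1 without chow 2, 3 or 4 and 2 without HF_5AzaD 3 or chow 1. Complexes II to IV with cytochrome c gave 2 higher and 1 lower of 23 (median 0.035, and 0.19 without HF_5AzaD 5 and 7). Cox6c (log2 difference 0.65, adjusted p = 0.0338, left-out range 0.0292 to 0.106) and Uqcrb (log2 difference 0.62, adjusted p = 0.0409, left-out range 0.0289 to 0.144) were higher, while Sdha, the flavoprotein of complex II, was lower, at 111, 98.3, 104 and 91.4 FPKM in HF_5AzaD and 146, 141, 139 and 135 FPKM in chow. Sdha held in all 8 fits (log2 difference -0.47, adjusted p = 0.00858, left-out range 0.00843 to 0.0343). ATP synthase gave 1 of 16, Atp5g2 (log2 difference 0.39, adjusted p = 0.0321, left-out range 0.0272 to 0.111), with 14 above chow (median 0.34). Chloride, sodium and proton pumps and transporters gave 0 of 24 (median 0.027).

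Synaptic genes lay mostly lower in HF_5AzaD. Excitatory neurons signal to postsynaptic scaffolds that hold glutamate receptors in place. Of 21 scaffold genes tested, 0 lay above chow, 4 were called lower (19.05%, against 8.29%), and the median was -0.47. The calls were Shank1, Shank2 and Shank3, the master scaffolds of excitatory synapses, and Kalrn, an exchange factor that shapes spines, with differences of -1.38 to -0.82. Shank3 had 23.7, 35.9, 30.1 and 21 FPKM in HF_5AzaD and 46.3, 54, 51.4 and 48.5 FPKM in chow, all HF_5AzaD libraries being lower, and differed by -0.87 (SE 0.20, adjusted p = 0.0163, left-out range 0.0145 to 0.0644). Shank2 had 0.564, 1.53, 0.986 and 0.558 FPKM in HF_5AzaD and 2.27, 3.38, 2.85 and 3.82 FPKM in chow (log2 difference -1.38, adjusted p = 0.0158, left-out range 0.0153 to 0.0601). Both were lowest in libraries 3 and 7, not 5 and 7, and without 5 and 7 their differences were -0.89 and -1.49. Kalrn followed the pattern of 5 and 7, at 65, 34.3, 72 and 25.5 FPKM in HF_5AzaD and 93.7, 98.6, 106 and 108 FPKM in chow (log2 difference -1.16, adjusted p = 0.0381, left-out range 0.020 to 0.134), and was -0.57 without them. The 4 calls fell to 0 without HF_5AzaD 7 and to 2 without any chow library, and without 5 and 7 the list's median was -0.38 with 0 of 21 above chow.

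Receptor lists gave fewer calls. AMPA, kainate and NMDA receptor subunits gave 1 higher and 1 lower of 15 (median 0.060). Both are kainate receptor genes: Grik5 (log2 difference 0.37, adjusted p = 0.0372, left-out range 0.0261 to 0.106) was higher, and Grik3, at 6.74, 5.31, 8.24 and 3.02 FPKM in HF_5AzaD and 8.66, 12, 11.5 and 14.5 FPKM in chow, was lower (log2 difference -1.0, adjusted p = 0.022, left-out range 0.0108 to 0.0697). Metabotropic glutamate receptors gave 1 lower of 6, Grm3 (log2 difference -0.61, adjusted p = 0.0401, left-out range 0.0233 to 0.141, median -0.57). Calcium/calmodulin kinases gave 1 lower of 17, Camk2g (log2 difference -0.94, adjusted p = 0.0323, left-out range 0.0175 to 0.115, median -0.33). Camk2a, the most abundant of them, had 924, 1193, 1059 and 832 FPKM in HF_5AzaD and 1544, 1678, 1598 and 1453 FPKM in chow, groups apart, and was not called (log2 difference -0.66, adjusted p = 0.0947). GABA-A receptor subunits gave 1 lower of 12 (median -0.46). Without HF_5AzaD 5 and 7 the medians were -0.10 for metabotropic receptors, with 3 of 6 lower, -0.20 for GABA-A receptors and -0.19 for the kinases. The metabotropic score was 0.11, -0.54, -0.10 and -0.68 in HF_5AzaD 3, 5, 6 and 7, against 0.02 to 0.31 in chow, so that libraries 5 and 7 were lowest. Monoamine, opioid and cannabinoid receptors gave 1 lower of 21, the serotonin receptor Htr6 (log2 difference -1.11, adjusted p = 0.0409, left-out range 0.0227 to 0.143, median -0.28).

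Voltage-gated potassium channels, which end the action potential, gave 0 higher and 6 lower calls of 23 (26.1%, median -0.49). Kcnab2, a cytoplasmic beta subunit, had 76.6, 82.1, 106 and 47.7 FPKM in HF_5AzaD and 165, 173, 175 and 172 FPKM in chow. Its groups were far apart, and the difference of -1.18 (SE 0.25, adjusted p = 0.0123, left-out range 0.00748 to 0.0449) held in all 8 fits. Besides Kcnh7, the calls were Kcnh1 (log2 difference -1.43, adjusted p = 0.0213, left-out range 0.0101 to 0.076), Kcnd2 (log2 difference -0.63, adjusted p = 0.0353, left-out range 0.025 to 0.124), Kcna1 (log2 difference -1.28, adjusted p = 0.0381, left-out range 0.0106 to 0.123) and Kcnh2, and all 6 lay between -2.23 and -0.58. Sodium and calcium channel genes gave 1 higher and 5 lower of 24 (20.8% lower, median -0.26). Cacna1i, a low-voltage calcium channel, had 17.9, 11.5, 25.5 and 11.8 FPKM in HF_5AzaD and 33.2, 35.2, 34.6 and 33.3 FPKM in chow, and held in all 8 fits (log2 difference -1.09, adjusted p = 0.0123, left-out range 0.00469 to 0.0486). Scn4b, an auxiliary sodium channel subunit, had 39.98, 1.65, 54.6 and 1.45 FPKM in HF_5AzaD and 78.3, 66.6, 90.7 and 50.2 FPKM in chow. It was nearly absent from libraries 5 and 7 while library 6 lay within the chow range, and its difference of -2.84 (adjusted p = 0.0434, 0.0113 to 0.148) was -0.57 (adjusted p = 0.418) without them. Cacna2d3 (log2 difference -1.41, adjusted p = 0.0253, left-out range 0.0108 to 0.076) and Cacng2 (log2 difference -1.26, adjusted p = 0.0365, left-out range 0.0174 to 0.117) were lower and Cacna1d (log2 difference 0.31, adjusted p = 0.0475, left-out range 0.0394 to 0.126) higher. Calls in both lists were 1 without HF_5AzaD 7. Potassium channel calls were 2 or 3 and sodium and calcium channel calls 2 without any chow library, and both lists had 3 without HF_5AzaD 5. Without 5 and 7 neither list held a call, and their medians were -0.32 and -0.17.

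Genes of synaptic vesicles and release gave 1 higher and 7 lower calls of 37 (18.9% lower, median -0.31). Unc13a, which primes vesicles, had 27.3, 25, 32.6 and 21.7 FPKM in HF_5AzaD and 40.5, 44.1, 44.9 and 56.2 FPKM in chow (log2 difference -0.79, adjusted p = 0.0321, left-out range 0.0241 to 0.11). Cplx1, a complexin, had 335, 177, 401 and 182 FPKM in HF_5AzaD and 466, 454, 498 and 431 FPKM in chow (log2 difference -0.85, adjusted p = 0.0353, left-out range 0.0113 to 0.125), with libraries 5 and 7 lowest. Syt11 (log2 difference -0.45, adjusted p = 0.035, left-out range 0.0354 to 0.118), Erc1 (log2 difference -0.45, adjusted p = 0.0359, left-out range 0.0213 to 0.104), Syt12 and Sv2a were called lower too, and Syt5 (log2 difference 0.59, adjusted p = 0.0371, left-out range 0.0273 to 0.125) was higher. The lower calls were 1 without HF_5AzaD 7, chow 2, chow 3 or chow 4 and 3 without HF_5AzaD 5 or chow 1. Without HF_5AzaD 5 and 7 there were 0, and the median was -0.20.

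Beside these neuronal lists stand the markers of excitatory neurons. All 7 tested lay lower in HF_5AzaD (median -0.66) and 0 were called. Their score was 0.46, -0.83, 0.20 and -0.95 in HF_5AzaD 3, 5, 6 and 7, against 0.36 to 0.43 in chow, and their summed level was 2836 to 5249 FPKM in HF_5AzaD and 4162 to 4792 FPKM in chow. None of the 7 was at 0 in any group, and without libraries 5 and 7 their median was -0.17, with 4 of 7 lower. Library 3 lay just above chow and library 6 below it in this score, and the potassium channel score was under chow in both, at 0.02 and -0.04, against 0.28 to 0.39 in chow. The scaffold score was -0.19, -0.04, -0.16 and -0.48 in HF_5AzaD, against 0.21 to 0.39 in chow. The part of the share of neurons in these results was not tested.

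**Figure D4:**
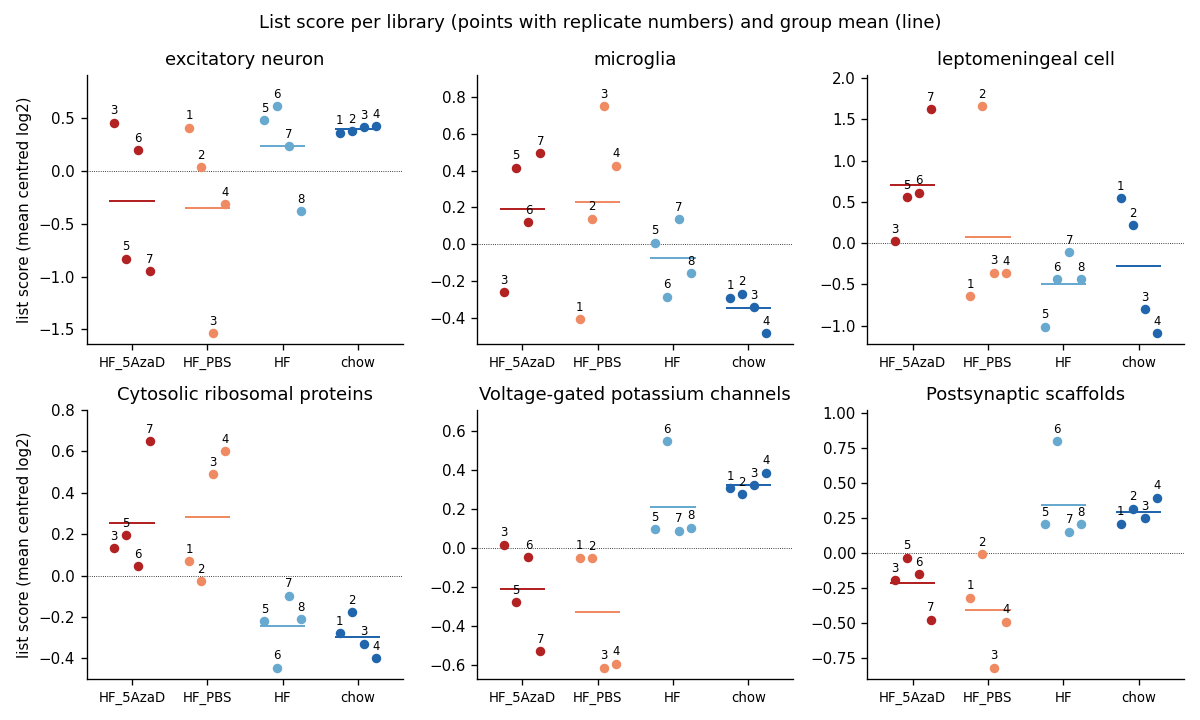
Score of 6 gene lists in each library (points with the replicate number, line at the group mean), computed by centring each member's log2 level on its average in the 16 libraries and averaging over members. HF_5AzaD 5 and 7 are low in excitatory neuron markers (-0.83 and -0.95), whereas all 4 HF_5AzaD libraries lie above chow in ribosomal proteins and below chow in potassium channels and scaffolds.

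Genes of growth signals and activity gave calls in both directions. Neurotrophin and plasticity genes gave 2 higher and 2 lower of 16 (median -0.17, and -0.09 without HF_5AzaD 5 and 7). Gap43, of growing axons, had 336, 349, 252 and 482 FPKM in HF_5AzaD and 179, 216, 182 and 281 FPKM in chow, groups that overlapped (log2 difference 0.71, adjusted p = 0.0342, left-out range 0.0151 to 0.121), and the receptor Ntrk3 was higher too (log2 difference 0.48, adjusted p = 0.0352, left-out range 0.0228 to 0.0955). Sort1, a sorting receptor for neurotrophins, was lower, at 91.8, 60.9, 94.4 and 56.1 FPKM in HF_5AzaD and 147, 147, 154 and 146 FPKM in chow (log2 difference -1.01, adjusted p = 0.0134, left-out range 0.0098 to 0.0539), as was Crtc1, a coactivator of CREB (log2 difference -0.92, adjusted p = 0.0233, left-out range 0.0216 to 0.0839). Bdnf, the neurotrophin most studied in cortex, had 5.75, 5.31, 6.27 and 8.21 FPKM in HF_5AzaD and 6.22, 5.05, 4.32 and 6.76 FPKM in chow, and was not called (log2 difference 0.18, 95% interval -0.43 to 0.78, adjusted p = 0.679). Immediate early genes, which neurons switch on within minutes of activity, gave 1 higher and 2 lower of 24 (median 0.049, on the other side at -0.13 without HF_5AzaD 5 and 7). Jund was higher and held in all 8 fits (log2 difference 0.58, adjusted p = 0.0124, left-out range 0.00885 to 0.0426), and Fosl2 (log2 difference -0.96, adjusted p = 0.0271, left-out range 0.0242 to 0.0756) and Egr3 (log2 difference -0.92, adjusted p = 0.0419, left-out range 0.0226 to 0.137) were lower. Fos had 7.08, 10.9, 23.5 and 34 FPKM in HF_5AzaD and 20.8, 12, 38.7 and 34 FPKM in chow, and Arc had 37.4, 25.7, 145 and 63.6 FPKM in HF_5AzaD and 61.9, 55.8, 139 and 123 FPKM in chow. Both spread widely in both groups and were not called, with 95% intervals of -1.81 to 0.64 for Fos and -1.86 to 0.50 for Arc on the log2 scale.

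Insulin signalling was the metabolic list with the most calls. Of 30 genes of insulin, mTOR and FoxO signalling, 1 was called higher and 9 lower (30.0%, against 8.29%, median -0.25). Foxo3, a transcription factor that insulin holds back, had 10.8, 7.14, 10.7 and 5.05 FPKM in HF_5AzaD and 17, 15.6, 18 and 20.3 FPKM in chow, and differed by -1.08 (SE 0.24, adjusted p = 0.0145, left-out range 0.010 to 0.0524). Libraries 5 and 7 were lowest, and all HF_5AzaD libraries lay under chow. Tsc1, a brake on mTOR, differed by -0.44 (adjusted p = 0.0336, 0.0253 to 0.12), Eif4ebp2, a repressor of translation under mTOR, by -0.79 (adjusted p = 0.0294, 0.0214 to 0.0898), Pik3r1, a regulatory subunit of PI3 kinase, by -0.67 (adjusted p = 0.0355, 0.0227 to 0.125), and Pdpk1, the kinase that activates Akt, by -0.52 (adjusted p = 0.0367, 0.0408 to 0.129). Irs1 and Rptor were also called lower. Mtor, the kinase itself, was higher, at 33.1, 31.9, 28 and 38.7 FPKM in HF_5AzaD and 21.4, 23.6, 25.1 and 21.3 FPKM in chow (log2 difference 0.51, adjusted p = 0.0131, left-out range 0.00803 to 0.0504). The lower calls thus hold a brake (Tsc1) and mediators (Irs1, Pik3r1, Pdpk1) of the pathway. Insr, the insulin receptor, had 6.26, 9.01, 6.05 and 6.72 FPKM in HF_5AzaD and 6.53, 6.51, 6.97 and 6.82 FPKM in chow, where only library 5 stood out, and was not called (log2 difference 0.04, 95% interval -0.19 to 0.28). It lay on the other side, at -0.075, without HF_5AzaD 5. The 9 lower calls fell to 0 without HF_5AzaD 7, to 1 without chow 2, 3 or 4, to 2 without chow 1 and to 4 without HF_5AzaD 3.

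Lipid genes gave small counts. Cholesterol synthesis genes gave 1 higher and 4 lower of 25 (median -0.08). Stard4, which carries sterols, had 3.64, 1.59, 3.25 and 2.15 FPKM in HF_5AzaD and 4.77, 5.58, 6.03 and 5.68 FPKM in chow (log2 difference -0.98, adjusted p = 0.0157, left-out range 0.012 to 0.0597). Insig2 (log2 difference -0.48, adjusted p = 0.0354, left-out range 0.026 to 0.105) and Scap (log2 difference -0.20, adjusted p = 0.0471, left-out range 0.0508 to 0.139), which steer the sterol sensor, were lower, and the enzyme Nsdhl (log2 difference 0.46, adjusted p = 0.0205, left-out range 0.017 to 0.0751) was higher. The 4 lower calls were 0 without HF_5AzaD 7, 1 without chow 3 or 4 and 2 without HF_5AzaD 5, chow 1 or chow 2. Fatty acid and glycerolipid synthesis gave 1 lower of 20 (median -0.049), Gpam, the first enzyme of triglyceride synthesis. Gpam had 10.8, 9.65, 12.4 and 9.35 FPKM in HF_5AzaD and 15.5, 16.2, 16 and 17.9 FPKM in chow, and its difference of -0.62 (SE 0.10, adjusted p = 0.00695, left-out range 0.00469 to 0.0289) held in all 8 fits. Fatty acid oxidation and PPAR targets gave 1 higher and 2 lower of 25 (median 0.13). Cpt1c, the brain form of carnitine palmitoyltransferase, was higher, at 41.7, 45.8, 49.5 and 53 FPKM in HF_5AzaD and 26.6, 32.1, 32.1 and 28.9 FPKM in chow, and held in all 8 fits (log2 difference 0.66, adjusted p = 0.0101, left-out range 0.0125 to 0.0422). The regulators Ppard (log2 difference -0.74, adjusted p = 0.0225, left-out range 0.0105 to 0.0831) and Ppargc1a (log2 difference -0.64, adjusted p = 0.0396, left-out range 0.0295 to 0.134) were lower. Lipoproteins and lipid transport gave 1 higher and 3 lower of 19 (median 0.09, and -0.02 without HF_5AzaD 5 and 7). Apoe, the main lipid carrier of the brain, had 2669, 3304, 2512 and 4038 FPKM in HF_5AzaD and 2149, 1980.1, 1897 and 1811 FPKM in chow (log2 difference 0.65, adjusted p = 0.0461, left-out range 0.0329 to 0.156). Vldlr (log2 difference -0.58, adjusted p = 0.0156, left-out range 0.0109 to 0.0606) and Abcg1 (log2 difference -0.36, adjusted p = 0.0363, left-out range 0.0317 to 0.0971) were among the lower calls.

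Genes of leptin, ghrelin and appetite peptides gave 1 lower of 15 (median 0.29, and 0.13 without HF_5AzaD 5 and 7), Ptpn1, a phosphatase that dampens insulin and leptin receptors. It had 7.14, 10.4, 9.62 and 7.66 FPKM in HF_5AzaD and 12.7, 14.1, 13.8 and 19.4 FPKM in chow (log2 difference -0.75, adjusted p = 0.0213, left-out range 0.0203 to 0.0735). Lepr did not enter the test. Glycolysis gave 3 higher and 3 lower of 17 (median 0.046, and 0.16 without HF_5AzaD 5 and 7). Gapdh had 106, 75.3, 90.9 and 114 FPKM in HF_5AzaD and 55.5, 54.2, 52 and 46.5 FPKM in chow, groups apart, and differed by 0.87 (SE 0.15, adjusted p = 0.00803, left-out range 0.00728 to 0.0315). It was also called without HF_5AzaD 5 and 7 (adjusted p = 0.0398), although its many pseudogenes can split its reads. Eno1 (log2 difference 0.77, adjusted p = 0.00858, left-out range 0.00554 to 0.0343) held in all 8 fits and Hk1 (log2 difference 0.31, adjusted p = 0.0382, left-out range 0.0254 to 0.111) did not. The phosphofructokinase genes Pfkfb2 (log2 difference -0.61, adjusted p = 0.0213, left-out range 0.0282 to 0.0703), Pfkfb3 (log2 difference -0.51, adjusted p = 0.0234, left-out range 0.00791 to 0.0782) and Pfkm (log2 difference -0.31, adjusted p = 0.0442, left-out range 0.0304 to 0.152) were the lower calls.

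Stress and hormone responses were mixed. Glucocorticoid response genes gave 3 higher and 2 lower of 26 (median -0.09). Mt1a, a metallothionein that binds zinc, had 6.35, 6.39, 4.33 and 12 FPKM in HF_5AzaD and 3.07, 3.2, 2.7 and 4.09 FPKM in chow, and held in all 8 fits (log2 difference 0.97, adjusted p = 0.0152, left-out range 0.00575 to 0.0477). Cebpb (log2 difference 1.34, adjusted p = 0.032, left-out range 0.0147 to 0.0897) and Cebpd (log2 difference 0.74, adjusted p = 0.0465, left-out range 0.0522 to 0.154), a pair of related transcription factors, were higher. Nr3c1, the glucocorticoid receptor, was lower, at 13.4, 12.5, 16.8 and 9.84 FPKM in HF_5AzaD and 17.2, 16.5, 17.1 and 16.5 FPKM in chow (log2 difference -0.37, adjusted p = 0.0489, left-out range 0.010 to 0.156), and so was Glul (log2 difference -0.59, adjusted p = 0.0416, left-out range 0.0321 to 0.146), the glutamine synthetase of astrocytes. Fkbp5, a standard target of that receptor, had 13.5, 15.8, 12.4 and 10.1 FPKM in HF_5AzaD and 13, 15.1, 15 and 15.9 FPKM in chow, with library 7 lowest, and was not called (log2 difference -0.20, 95% interval -0.56 to 0.17). Circadian clock genes gave 0 higher and 5 lower of 17 (29.4%, median -0.35), with 16 of 17 under chow. Clock had 1.1, 1.47, 1.73 and 0.813 FPKM in HF_5AzaD and 3.11, 3.36, 3.78 and 4.26 FPKM in chow, groups far apart, and held in all 8 fits (log2 difference -1.23, adjusted p = 0.0126, left-out range 0.00984 to 0.0488). Cry2, a repressor of the clock, differed by -0.49 (adjusted p = 0.0162, 0.00748 to 0.0579), the clock kinases Csnk1d and Csnk1e by -0.32 (adjusted p = 0.0247, 0.0172 to 0.0899) and -0.40 (adjusted p = 0.0342, 0.0273 to 0.111), and Rorb, also a marker of upper cortical layers, by -1.44 (adjusted p = 0.036, 0.0137 to 0.126). The 5 calls were 1 without HF_5AzaD 7 or chow 4 and 2 without chow 2 or 3. The labels give no hour of death.

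Antioxidant and glutathione genes gave 4 higher and 1 lower of 29 (13.8% higher, median 0.19). Besides Gstm1 these were Gsta4 (log2 difference 1.01, adjusted p = 0.0353, left-out range 0.0159 to 0.126), Prdx1 (log2 difference 0.80, adjusted p = 0.0356, left-out range 0.0318 to 0.126) and Gstt1 (log2 difference 0.70, adjusted p = 0.0464, left-out range 0.0361 to 0.159), and Sod2, the mitochondrial superoxide dismutase, was lower (log2 difference -0.49, adjusted p = 0.034, left-out range 0.0227 to 0.121). Only Gstm1 held without HF_5AzaD 7 or without any chow library. Genes of the p53 response and DNA damage gave 5 higher and 1 lower of 24 (20.8% higher, median 0.16). Chek1, a checkpoint kinase, had 1.52, 1.4, 1.24 and 1.97 FPKM in HF_5AzaD and 0.638, 0.819, 0.823 and 0.915 FPKM in chow, low levels but groups apart (log2 difference 0.64, adjusted p = 0.0184, left-out range 0.0137 to 0.0692). Xrcc1, a scaffold of base excision repair, had 31.7, 33, 30.7 and 40.5 FPKM in HF_5AzaD and 17.2, 22.2, 21.2 and 26.1 FPKM in chow (log2 difference 0.64, adjusted p = 0.0213, left-out range 0.0201 to 0.0787). H2afx (log2 difference 0.41, adjusted p = 0.0217, left-out range 0.0102 to 0.0661), Ddb2 (log2 difference 0.63, adjusted p = 0.0412, left-out range 0.0447 to 0.128) and Xpc (log2 difference 0.42, adjusted p = 0.0427, left-out range 0.0431 to 0.117) of damage sensing and repair were higher and Zmat3 (log2 difference -0.48, adjusted p = 0.0285, left-out range 0.0315 to 0.105), a p53 target, was lower. Cdkn1a, the best known p53 target, had 10.9, 5.29, 7.26 and 11.7 FPKM in HF_5AzaD and 7.17, 7.16, 5.99 and 9.27 FPKM in chow, overlapping groups, and was not called (log2 difference 0.18, 95% interval -0.30 to 0.67). The 5 higher calls were 0 without HF_5AzaD 7, 1 without chow 3, 2 without chow 1 or 4 and 3 without chow 2 or HF_5AzaD 5 or 6. Endoplasmic reticulum stress genes gave 2 lower of 21 (median -0.019), Atf6 (log2 difference -0.54, adjusted p = 0.0239, left-out range 0.0178 to 0.0873) and Syvn1 (log2 difference -0.37, adjusted p = 0.0407, left-out range 0.0311 to 0.139). Heat shock and cold response genes gave 1 higher and 4 lower of 18 (median 0.019). Rbm3, a cold-induced RNA-binding protein, was higher (log2 difference 0.55, adjusted p = 0.0434, left-out range 0.0224 to 0.13) and the chaperones Hspa8, Hspa4l, Hspa9 and Hspa4 were lower, by -0.94 to -0.44. Hspa8 had 1.64, 2.12, 2.18 and 0.679 FPKM in HF_5AzaD and 3.66, 3.21, 3.35 and 3.55 FPKM in chow, and since it has many pseudogenes its value is uncertain. The 4 lower calls were 1 without HF_5AzaD 7 or chow 3 and 2 without chow 2 or 4.

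Interferon response genes gave 1 lower of 21 (median 0.27), and MHC class I and antigen presentation gave 0 of 14 (median 0.21). Without HF_5AzaD 5 and 7 these medians were 0.05 and 0.13. RNA splicing factors gave 8 higher and 4 lower calls of 31 (25.8% higher, 12.9% lower, median 0.16, and 0.09 without HF_5AzaD 5 and 7). Srsf6 had 28.9, 26.1, 27.6 and 29 FPKM in HF_5AzaD and 19.8, 18.5, 17.3 and 16.4 FPKM in chow, and Srsf2 had 103, 94.4, 87.9 and 104 FPKM in HF_5AzaD and 68.7, 61.4, 63.2 and 62.8 FPKM in chow. Both SR proteins were evenly higher in all 4 HF_5AzaD libraries and held in all 8 fits, at 0.62 (adjusted p = 0.00858, 0.00935 to 0.0343) and 0.60 (adjusted p = 0.0116, 0.00982 to 0.0456). Hnrnpu (log2 difference 0.40, adjusted p = 0.0129, left-out range 0.0136 to 0.0504), Srrm1 (log2 difference 0.35, adjusted p = 0.0217, left-out range 0.024 to 0.0795), Srsf11 (log2 difference 0.41, adjusted p = 0.0269, left-out range 0.0262 to 0.076), Snrnp70, Srsf3 and Celf4 were the other higher calls, and all 8 lay between 0.35 and 0.62. Rbfox2, a splicing regulator of neurons, was lower, at 8.27, 19.8, 13.4 and 10.3 FPKM in HF_5AzaD and 26, 30.9, 26.8 and 38.6 FPKM in chow (log2 difference -1.26, adjusted p = 0.0201, left-out range 0.0155 to 0.0701), as were Mbnl1 (log2 difference -0.96, adjusted p = 0.0207, left-out range 0.0165 to 0.0764), Snrnp200 (log2 difference -0.43, adjusted p = 0.030, left-out range 0.024 to 0.0997) and Son (log2 difference -0.46, adjusted p = 0.0326, left-out range 0.0292 to 0.113). Without HF_5AzaD 7 the counts were 2 higher and 0 lower, without HF_5AzaD 3 they were 5 higher and 3 lower, and without single chow libraries 3 to 5 higher and 0 to 3 lower. Genes of the cytoskeleton and axon transport gave 2 higher and 4 lower of 36 (median -0.038). Tmsb4x (log2 difference 0.60, adjusted p = 0.0349, left-out range 0.034 to 0.114) joined Tmsb10. Kif5a, a motor of axonal transport, had 279, 226, 405 and 207 FPKM in HF_5AzaD and 499.6, 570.5, 678 and 508 FPKM in chow (log2 difference -1.05, adjusted p = 0.0164, left-out range 0.00773 to 0.0647), and Map1a (log2 difference -0.97, adjusted p = 0.0315, left-out range 0.0226 to 0.112) and Mapt (log2 difference -0.33, adjusted p = 0.0423, left-out range 0.034 to 0.138) were lower too. The 4 lower calls were 0 without HF_5AzaD 7, 1 without chow 3 or 4 and 2 without HF_5AzaD 3 or chow 2.

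Markers of the other cells the tissue could hold gave few calls. Of 18 microglial markers, 4 were called higher (22.2%), 17 lay above chow and the median was 0.58. Aif1 had 29.5, 37, 37.7 and 57.3 FPKM in HF_5AzaD and 22.6, 19.9, 19.9 and 14.9 FPKM in chow (log2 difference 1.02, adjusted p = 0.0254, left-out range 0.0286 to 0.0938), and Fcer1g (log2 difference 0.97, adjusted p = 0.0273, left-out range 0.0261 to 0.0997) and the complement genes C1qc (log2 difference 0.84, adjusted p = 0.0271, left-out range 0.0203 to 0.0958) and C1qb (log2 difference 0.73, adjusted p = 0.0364, left-out range 0.0322 to 0.127) were the others. Their summed level was 432 to 723 FPKM in HF_5AzaD and 318 to 391 FPKM in chow. The 4 calls fell to 0 without HF_5AzaD 7, chow 2, chow 3 or chow 4, to 1 without HF_5AzaD 5 and to 2 without chow 1, and were 7 without HF_5AzaD 3. Leptomeningeal markers lay higher in 10 of 10 (median 0.88) with 0 calls and summed levels of 94.2 to 385 FPKM in HF_5AzaD and 30.2 to 148 FPKM in chow; Col1a2 and Ogn were at 0 in all 8 libraries. Pericyte and smooth muscle markers gave 1 of 9, Cspg4 (log2 difference 0.59, adjusted p = 0.0373, left-out range 0.0262 to 0.116, median 0.59), which is also a precursor marker. Oligodendrocyte precursor markers gave that gene of 6 (median 0.008). Myelin markers gave 1 of 24, Aspa (log2 difference 0.50, adjusted p = 0.0488, left-out range 0.0446 to 0.153, median -0.17), astrocyte markers 1 lower of 13, Glul (median 0.026), upper layer markers 1 lower of 7, Rorb (median -0.40), and striatal neuron markers 1 lower of 17, Rasd2 (log2 difference -1.30, adjusted p = 0.0233, left-out range 0.00673 to 0.0792, median -0.08). Deep layer (12 tested, median -0.13), GABAergic interneuron (14, -0.08), endothelial (10, 0.13), choroid plexus (4, 0.29), blood (1, 0.79), thalamic (8, 0.046), hypothalamic (5, 0.85), hippocampal (6, 0.27) and olfactory bulb markers (5, 0.13) gave 0 calls. Without HF_5AzaD 5 and 7 the medians of several marker lists were smaller or on the other side: 0.36 for microglial, 0.52 for leptomeningeal, 0.38 for pericyte, 0.14 for hypothalamic and -0.20 for upper layer markers, and 0.12 for myelin, -0.10 for choroid plexus and -0.06 for hippocampal markers. That of striatal markers was -0.45.

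The further groups place these differences. Against chow, HF_PBS gave 4173 calls (28.2%) and HF gave 0 (0%; 1020 loci at an unadjusted p under 0.05, lowest adjusted p 0.682). HF_5AzaD against HF gave 2112 calls (14.2%), and HF_5AzaD against HF_PBS, the test of the drug within injected animals, gave 0 (0%; 1100 at an unadjusted p under 0.05, lowest adjusted p 0.237). These comparisons share libraries with the main comparison, so only their own values are set side by side. Gstm1 averaged 138 ± 61.9 FPKM in HF_5AzaD, 127 ± 34.2 in HF_PBS, 57.1 ± 17.3 in HF and 46.4 ± 8.82 in chow (SD, n = 4 each). Kcnh7 averaged 2.03 ± 1.28 FPKM in HF_5AzaD, 1.58 ± 0.973 in HF_PBS, 9.19 ± 8.25 in HF and 10.3 ± 1.54 in chow. Kcnab2 averaged 78.2 ± 24.1 FPKM in HF_5AzaD, 59.1 ± 14.1 in HF_PBS, 143 ± 44.7 in HF and 171 ± 4.14 in chow. In each of them the mean of HF_5AzaD lay near that of HF_PBS and the mean of HF near that of chow, although HF spread widely for Kcnh7. The difference of HF_5AzaD minus HF_PBS was 0.07 for Gstm1 (adjusted p = 0.988), 0.26 for Kcnh7 (adjusted p = 0.952), 0.38 for Kcnab2 (adjusted p = 0.79), -0.05 for Rps24 (adjusted p = 0.989) and -0.13 for Clock (adjusted p = 0.959). These p-values do not show that the injected groups were alike.

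HF_PBS against HF shares no library with HF_5AzaD against chow and gave 3536 calls (23.9%), 1580 higher and 1956 lower. In it, 2336 of the 2414 called loci (96.8%) had the same sign, against 78.4% of all loci tested. Calls in both numbered 1507, which is 62.4% of the calls in HF_5AzaD against chow and 42.6% of those in HF_PBS against HF, and 1506 of them had the same sign. Both tests come from the same fit, with the spread of each locus pooled over all 16 libraries. A locus of small spread is thus favoured in both, and the number of shared calls is not an independent overlap. Called loci were also chosen for differences large against that spread, so all loci are not a matched baseline for their signs. The HF_PBS libraries were themselves uneven. The excitatory neuron score was 0.41, 0.04, -1.53 and -0.31 in HF_PBS 1, 2, 3 and 4, the hypothalamic score -0.90, 0.68, 3.72 and 2.48, and the myelin score 0.37, -0.45, 1.19 and 1.09, and Oxt stood at 0.234, 5.61, 403 and 46.6 FPKM. HF_PBS 3 was thus farthest out in excitatory neuron and hypothalamic markers, and HF_PBS 3 and 4 were highest in myelin markers. The striatal neuron score was -0.64, 1.18, 1.01 and 1.34 in HF_PBS 1, 2, 3 and 4. HF was uneven in it too, at -0.52, -0.38, -0.35 and 2.20 in HF 5, 6, 7 and 8. HF_PBS 2 had the highest leptomeningeal score of the 16 libraries, 1.66. HF_PBS 2 and HF 8 stayed in both fits that follow. Without HF_PBS 3 there were 2648 calls, and 96.1% of the 2414 loci had the same sign. Without HF_PBS 3 and 4 there were 320 calls (110 higher, 210 lower), and 93.1% of the 2414 had the same sign, against 70.7% of all loci. Calls in both were 221 there. These alternatives were chosen after seeing the data, and the part of the markers in the shared signs was not tested. With all 4 HF_PBS libraries, in HF_PBS minus HF, Rps24 differed by 1.42 (adjusted p = 0.00354), Gstm1 by 1.15 (adjusted p = 0.0153), Wsb1 by 0.90 (adjusted p = 0.0183) and Kcnh7 by -2.04 (adjusted p = 0.00903). Gfod1 differed by -2.28 (adjusted p = 0.00259), Kcnab2 by -1.24 (adjusted p = 0.00468) and Clock by -1.15 (adjusted p = 0.00797). Among the lists, ribosomal proteins had a median of 0.52 in HF_5AzaD minus chow and 0.55 in HF_PBS minus HF, potassium channels -0.49 and -0.52, and scaffolds -0.47 and -0.79. Without HF_PBS 3 and 4 the HF_PBS minus HF medians of these lists were 0.27, -0.24 and -0.48. Some lists parted. Myelin markers had medians of -0.17 in HF_5AzaD minus chow and 0.74 in HF_PBS minus HF, immediate early genes 0.049 and 0.50, and glucocorticoid response genes -0.09 and 0.38. Striatal neuron markers had medians of -0.08 and 0.65 in the same order. Without HF_PBS 3 and 4 the HF_PBS minus HF medians were 0.13 for myelin markers, 0.45 for immediate early genes and 0.40 for glucocorticoid response genes. Both contrasts hold an injected against an uninjected group, and injection cannot be told apart from any handling or batch that went with it. In the labels the letters HFD stand for diet without injection in 1 place and for PBS-injected rats in another. Grouping here goes by the treatment named for each sample, and an exchange of HF and HF_PBS would leave HF_5AzaD against chow as it is. It would turn the sign of the HF_PBS minus HF contrast and swap the means given for these groups. HF_5AzaD against PBS-injected rats would then be the comparison with 2112 calls in place of 0, and diet alone against chow the one with 4173 calls in place of 0.

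**Figure D5:**
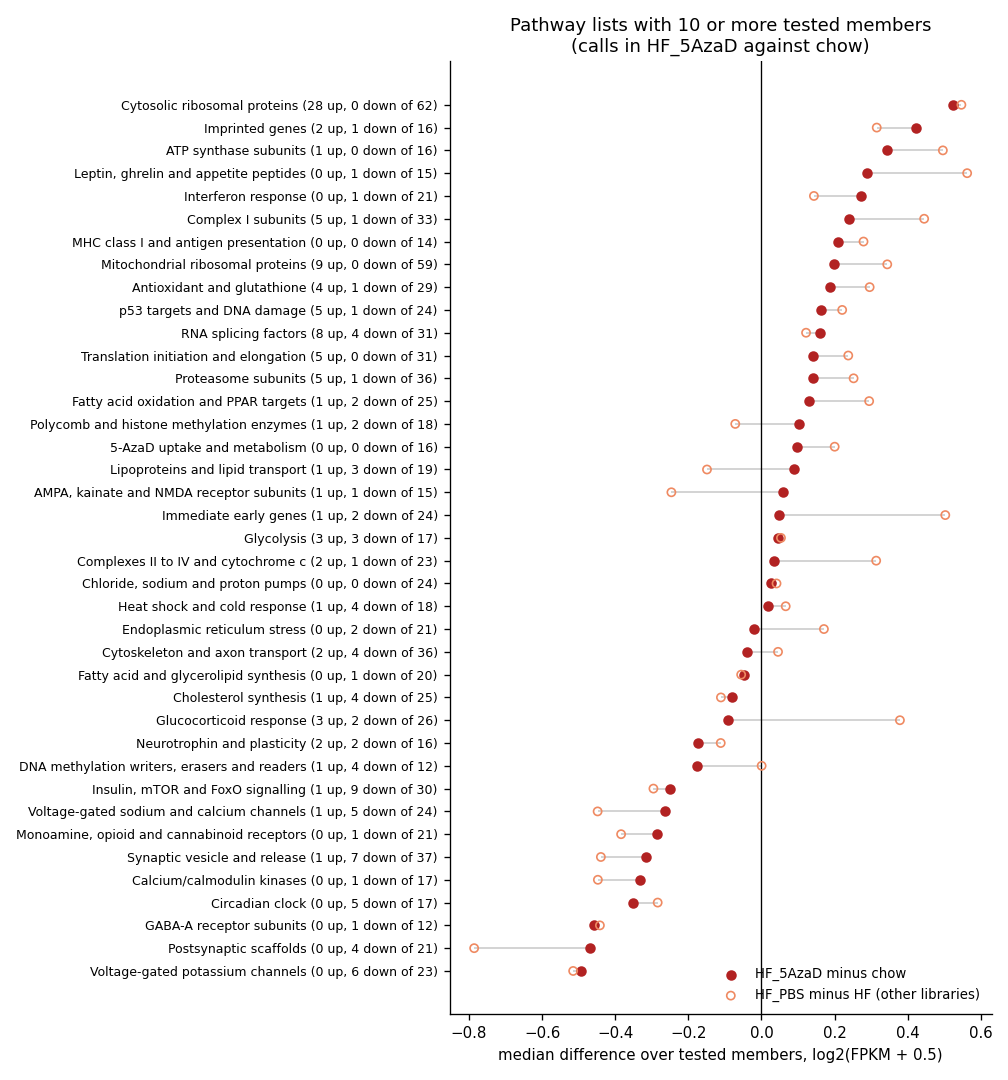
Median log2 difference over the tested members of each pathway list with at least 10 of them, in HF_5AzaD minus chow (filled) and in HF_PBS minus HF (open), which share no library. In HF_5AzaD minus chow, ribosomal proteins lie farthest to the right (0.52) and potassium channels and scaffolds farthest to the left (-0.49 and -0.47).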

How the data were processed

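Poly-A RNA of rat frontal cortex was sequenced, with 4 libraries in each of 4 groups, grouped by the treatment stated in the labels. The deposited table holds FPKM per merged locus, made by the authors, beside a status flag. Tools in the submitters' processing notes are Cufflinks, Cuffdiff, TopHat, Bowtie, TopHat2 and Bowtie2, on build rn5, and no version or role is stated. The strand of the kit is not stated either, so overlapping and antisense transcripts cannot be told apart. Any locus lacking the status OK in some library was dropped (136 of those with a mean of at least 1 FPKM). There were 0 per-sample columns of other series. Differences are HF_5AzaD minus chow on log2(FPKM + 0.5), which understates changes of low genes, fitted with limma 3.58.1 in R 4.3.3 with a mean-dependent prior, 1 mean per group, all 16 libraries and 12 residual degrees of freedom. Benjamini-Hochberg adjustment ran over 14824 loci, and a locus was called at an adjusted p under 0.05. The script was tested on simulated data.

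Gene lists (41 of pathways, 18 of cell markers) and the members were chosen with earlier results of these data known. Each symbol counts by its locus with the highest mean. Named genes are the 12 largest calls per direction with a mean of at least 5 FPKM and groups apart, the 4 lowest p per direction beyond these, 13 fixed genes, and up to 5 called members with the lowest p per list and direction. Neurod6, Tbr1, Slc17a7, Camk2a, Oxt and list members named without values were added after their values were seen. Some genes that enter the counts are not reported here by name. Alternatives (pseudocount, level filter, status filter, scaling, prior, libraries in the fit, leaving out each library) are under the closing section. Python 3.11.15 with pandas 2.3.3, numpy 2.4.6 and matplotlib 3.10.9 made counts and plots.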

Additional observations from a re-analysis of the deposited data

Results flagged for a closer look

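In 17 of 384 groups of 4 libraries (192 named genes in HF_5AzaD and in chow), the highest or lowest library stood apart from the other 3 by more of the group's range than Dixon's 95% critical value allows. Chance flags about 1 group in 20 for genes not chosen by their values. These groups share the same 8 libraries and most genes were chosen as called, so the total cannot be judged against that rate. Chow 4 held 8 of them and HF_5AzaD 7 held 5.

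HF_5AzaD 7 was the highest of its group in the ribosomal protein genes Rps29 (190.5 FPKM) and Rps24 (480 FPKM), in the transcription factor Cebpd (8.44 FPKM) and in the splicing coactivator Srrm1 (26.4 FPKM), and the lowest in Rmdn3 (4.73 FPKM). HF_5AzaD 5 was the highest in Caln1 (18.9 FPKM), HF_5AzaD 3 in Mrps35 (17.5 FPKM), and HF_5AzaD 6 was the only library of its group above 0 in Ttc39a (0.849 FPKM).

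Chow 4 was the highest of its group in Polg (12.01 FPKM), Zmat3 (18.5 FPKM), Egr3 (72.01 FPKM) and Hk1 (156 FPKM), and the lowest in Ddb2 (0.459 FPKM), Mrpl32 (13.4 FPKM), Ndufa11 (92.2 FPKM) and Ndufa6 (157 FPKM). Chow 3 was the highest in Sort1 (154 FPKM). Leaving out chow 4 left 705 calls in HF_5AzaD against chow.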

How the results depend on the processing

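With all 8 libraries kept, the number of calls stayed within 1.5 times of 2414 under every other setting tried: 2362 and 2407 with pseudocounts of 0.1 and 1, 1940 without a level filter, 1904 at a mean of at least 5 FPKM, 2629 with only the 8 libraries in the fit, 2305 with a constant prior and 2462 without the status filter. Equal library medians gave 2407 calls with 52.1% higher, and quantile normalization 2539 with 51.5% higher, in place of 44.1%. The loci called were not all the same. Of the 2414, 2028 were called again with only the 8 libraries, 1587 without a level filter and 1770 at a mean of at least 5 FPKM. The other settings with all 8 libraries kept 2205 to 2414 of them. Leaving out 1 library gave 399 to 2906 calls, 179 to 1348 higher and 220 to 1558 lower. Leaving out HF_5AzaD 5 and 7, an alternative chosen after seeing the data, gave 73 calls, 16 higher and 57 lower, in a design with 2 libraries in that group. Among named genes, signs turned only for Insr (-0.0747 to 0.104 with 1 library left out, lowest without HF_5AzaD 5, and -0.11 without 5 and 7) and Neurod6 (0.25 without 5 and 7), neither called. The cause was not tested.

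No paired analysis was possible because HF_5AzaD and chow share only the replicate number 3. Absolute depth is unknown, and no interval from counting can be given.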
